A study of Mus musculus with 12 samples.

Results

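The set described here holds 10 genes of the fibroblast growth factor (FGF) system, and each was matched by its symbol in both read count tables of the series. They are the ligand genes Fgf18, Fgf1, Fgf7 and Fgf21, the receptor genes Fgfr1, Fgfr2, Fgfr3, Fgfr4 and Fgfrl1, and the co-receptor gene Klb. The counts of the CDE diet livers cover 31663 genes and those of the normal diet livers 25285 genes, and all 10 members are in both. The RNA was taken from whole livers of mice that the paper describes as of C57BL/6 origin, and the 12 libraries form 4 groups of 3. CflarLKO mice carry a floxed Cflar gene, which encodes the caspase-8 regulator cFLIP, and a Cre recombinase driven by the albumin promoter and so active in hepatocytes. CflarFF mice carry the floxed gene without that Cre. The mice of both Cflar groups were females that began the choline-deficient, ethionine-supplemented (CDE) diet at 8 weeks of age and stayed on it for 28 days. Fgf18Tg mice carry an Fgf18 cDNA in the Rosa26 locus behind the CAG promoter and a loxP-flanked stop cassette, together with the same albumin-driven Cre. NonTg mice were their controls, and which of these alleles they carried is not given in the sources used here. The Fgf18Tg and NonTg mice were 8 weeks old and ate the normal diet. The transgene was made as several lines, and which line was sequenced is likewise not given.

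FGFs bind receptor tyrosine kinases together with heparan sulfate or, for the endocrine members, with a Klotho protein. The receptors signal through adaptors to RAS and ERK, which induce feedback inhibitors such as the Sprouty proteins. In the liver FGFR4 and its co-receptor beta-Klotho, the product of Klb, are known in hepatocytes, where they receive FGF15 from the ileum and restrain bile acid synthesis. FGF18 is known as a paracrine ligand in skeletal and lung development, FGF1 as a ligand of every FGF receptor, FGF7 as a mesenchymal ligand of epithelial FGFR2, and FGF21 as a hormone that the liver secretes and that needs beta-Klotho. FGFRL1 lacks the kinase domain. Read counts per gene do not separate the receptor splice forms that differ in ligand choice.

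Promoter sequences of RefSeq (mouse build GRCm38.p6, from 250 bases before to 50 after a transcription start) were found for 8 of the 10 members. The windows of Fgf18, Fgf21 and Klb are shown 5′ to 3′ on the gene's strand. The first is the native start of the ligand that the study expressed from another promoter, and the other windows belong to the endocrine ligand made by the liver and to the co-receptor it needs. Capitals mark matches to the motifs searched on both strands.
Fgf18, chr11:33147351-33147650, minus strand: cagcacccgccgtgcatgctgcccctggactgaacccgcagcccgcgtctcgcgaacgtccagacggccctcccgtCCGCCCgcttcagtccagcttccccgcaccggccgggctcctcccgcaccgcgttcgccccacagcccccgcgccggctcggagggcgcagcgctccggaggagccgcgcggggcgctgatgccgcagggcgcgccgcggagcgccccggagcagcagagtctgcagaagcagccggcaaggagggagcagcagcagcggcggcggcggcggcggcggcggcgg
Fgf21, chr7:45615441-45615740, minus strand: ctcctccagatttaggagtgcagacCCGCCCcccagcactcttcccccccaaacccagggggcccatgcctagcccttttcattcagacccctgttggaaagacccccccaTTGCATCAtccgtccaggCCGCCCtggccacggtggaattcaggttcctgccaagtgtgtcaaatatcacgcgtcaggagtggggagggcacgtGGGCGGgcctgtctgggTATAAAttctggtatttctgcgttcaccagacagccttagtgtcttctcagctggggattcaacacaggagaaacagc
Klb, chr5:65348161-65348460, plus strand: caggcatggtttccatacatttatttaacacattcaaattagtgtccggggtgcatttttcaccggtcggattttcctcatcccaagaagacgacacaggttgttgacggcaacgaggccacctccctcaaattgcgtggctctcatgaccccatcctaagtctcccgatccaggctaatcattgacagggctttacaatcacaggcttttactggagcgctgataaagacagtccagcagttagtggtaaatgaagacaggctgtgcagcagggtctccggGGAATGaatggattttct

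The motifs searched were a GC box (GGGCGG, in 35.7% of 32851 promoter windows of this length), a TATA box (TATAAA, in 13.6%), an AP-1 site (TGANTCA, in 7.81%), a TEAD site (GGAATG, in 14.7%), an element bound by ATF4 (TGATGNAA, in 3.97%) and an element bound by PPAR (in 0.381%). No match overlapped a match to another motif in the windows shown. The Fgf18 window held a GC box and was rich in G and C, at 78.7% against a median of 52.7% over all windows, with 47 CpG dinucleotides against a median of 7. The Fgf21 window had a TATA box from -28 to -23 relative to the start, 3 GC boxes and, from -139 to -132, an ATF4 element on the other strand. The Klb window held a TEAD site from 32 to 37 and neither a GC box nor a TATA box. These matches describe letters, and binding was not measured.

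Library totals ran from 6487178 to 10414883 counts on the CDE diet and from 1136680 to 3089872 on the normal diet, so low genes were measured with fewer counts in the normal diet livers. Cflar itself had 658, 517 and 397 counts in CflarLKO livers and 533, 515 and 602 in CflarFF livers (log2 fold change -0.47, edgeR adjusted p = 0.0235), which was a call lost in 6 of 14 alternatives and a change of -0.0073 under scaling by library size only. Cflar was also lower in Fgf18Tg livers, where it is not deleted (-0.43, adjusted p = 0.0277, lost in 7 of 14 alternatives). The deletion removes only the first exon, which counts per gene do not separate. CflarFF replicate 2 stood apart from its group, with 2.75% of counts from Alb against 5.04% and 7.83%, and 1.23% from the Mup genes against 0.156% and 0.170%. The CDE libraries had 2694 to 4458 counts of Xist and up to 3 of Ddx3y, and the normal diet libraries had up to 4 of Xist and 59 to 187 of Ddx3y, so sex by these counts did not differ within either comparison but did between the experiments. All 20 hepatocyte markers passed the filter on low counts in both experiments.

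On the CDE diet, 3 of the receptor genes rose in CflarLKO livers and Klb and Fgf1 fell. Of the 8 members with enough counts to be tested, 3 were higher (15.6% of all 17036 genes tested were) and 2 were lower (13.1% of all genes were) at an adjusted p under 0.05 in edgeR's quasi-likelihood test. So 5 passed in either direction, as 28.7% of all genes did. Fgf18 and Fgf7 had too few counts for it. Fgfr1, Fgfr2 and Fgfr3 lay entirely higher in CflarLKO livers, as 23.8% of all genes tested did, and Fgf1 and Klb entirely lower, as 21.0% did. Values below are normalized counts, which are read counts scaled by library size and composition within 1 experiment, and errors are the SD of 3 mice.

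Fgf18 was rare on the CDE diet. It had 6, 7 and 3 raw counts in CflarLKO livers, against 0, 0 and 1 in CflarFF livers, or 0.463 to 0.801 CPM (read counts scaled to the library total) against 0 to 0.112 CPM. Every CflarLKO library was above every CflarFF library. A floor of 3 counts, which is the limit that a count of 0 allows in a library, corresponds to 0.308 and 0.365 CPM in the CflarFF libraries without a count. The summed counts, 16 in CflarLKO and 1 in CflarFF, gave a scaled ratio of 12.2 with an exact 95% interval of 1.89 to 509 that covers counting error only. On the log2 scale this ratio was 3.60, and it was 2.98 without CflarFF replicate 1 and 3.03 without CflarFF replicate 2, while no count is left in the group without CflarFF replicate 3. An exact two-sided permutation test gave p = 0.1, the smallest p that 3 against 3 mice allow. With no filter on low counts, edgeR gave Fgf18 an adjusted p of 0.0265 (log2 fold change 3.24). At similar fold changes, that fit moved the adjusted p of Fgf1 from 0.00566 to 1.55e-15 and of Fgfr2 from 0.0127 to 1.7e-07. For Fgf21 and Fgfr4 it gave a higher adjusted p than the filtered fit did. Its p-values are thus not comparable with those of the filtered fit, and the value for Fgf18 is a description only.

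Fgf1, the ligand that binds all the receptors, was abundant and fell in CflarLKO livers. It had 213, 191 and 182 normalized counts in CflarLKO livers, against 573, 310 and 741 in CflarFF livers. The CflarLKO libraries lay close together and below all CflarFF libraries, of which replicate 2 was the lowest. The log2 fold change was -1.47 (standard error 0.28, edgeR adjusted p = 0.00566), and it was -1.74 without CflarFF replicate 2 and -1.17 without CflarFF replicate 3, past the threshold in both cases.

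Fgf21 had 42.0, 74.8 and 125 normalized counts in CflarLKO livers, against 207, 55.5 and 155 in CflarFF livers. The groups overlapped, and the test found no difference beyond the spread (log2 fold change -0.82, 95% interval -2.23 to 0.58, edgeR adjusted p = 0.339). With each library left out in turn the value ran from -1.27 to -0.42, and the lowest adjusted p of edgeR was 0.0526, without CflarFF replicate 2. Fgf7 had 4, 1 and 2 raw counts in CflarLKO livers, against 1, 0 and 0 in CflarFF livers, and the groups overlapped (ratio 5.31, exact 95% interval 0.683 to 240, exact permutation p = 0.2).

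Fgfr1, a receptor known for mesenchymal cells, showed the greatest rise among the members tested on the CDE diet. It had 125, 201 and 200 normalized counts in CflarLKO livers, against 56.6, 69.6 and 44.0 in CflarFF livers. There was no overlap, and the log2 fold change was 1.62 (standard error 0.24, edgeR adjusted p = 8.62e-04).

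Fgfr3, a receptor that FGF18 can activate, had 570, 603 and 728 normalized counts in CflarLKO livers, against 294, 360 and 220 in CflarFF livers. The lowest CflarLKO library was well above the highest CflarFF library. The log2 fold change was 1.12 (standard error 0.18, edgeR adjusted p = 0.00145).

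Fgfr2, whose epithelial form is the receptor of FGF7, had 495, 316 and 238 normalized counts in CflarLKO livers, against 183, 186 and 161 in CflarFF livers. The paper's single-cell data, which held no cholangiocytes, placed Fgfr2 in hepatic stellate cells. There, the paper proposes, FGF18 may signal through FGFR2. With published cholangiocyte data added, the paper also proposes that FGF18 may act on cholangiocytes through Fgfr1 to Fgfr3. The CflarFF libraries were alike, whereas CflarLKO replicate 1 was far above the other CflarLKO libraries. The log2 fold change was 0.99 (standard error 0.24, edgeR adjusted p = 0.0127). It was 0.65 without CflarLKO replicate 1 (adjusted p = 0.0388), and the call was lost without CflarFF replicate 3 (0.93, adjusted p = 0.0672). Without CflarFF replicate 2, the library that stood apart, Fgfr1, Fgfr2 and Fgfr3 were higher by 1.79, 1.04 and 1.30 on the log2 scale and stayed past the threshold. Annotated exons of Fgfr1 and Fgfr3 overlap a transcript on the opposite strand and those of Fgfr2 overlap Ctbp2, and how the counting treated strand and shared bases is not given in the sources used here.

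The remaining receptor genes did not pass the test. Fgfr4, the hepatocyte receptor of FGF15, averaged 103 ± 11.3 normalized counts in CflarLKO livers and 90.7 ± 22.0 in CflarFF livers (SD, n = 3 each; log2 fold change 0.18, 95% interval -0.29 to 0.64, edgeR adjusted p = 0.571). Fgfrl1, the receptor without a kinase domain, averaged 168 ± 33.6 normalized counts in CflarLKO livers and 137 ± 23.1 in CflarFF livers (SD, n = 3 each; 0.30, 95% interval -0.13 to 0.72, edgeR adjusted p = 0.280). When libraries were scaled by size only, which moves the median of all genes to 0.46, both passed, at 0.64 (adjusted p = 0.0236) and 0.77 (adjusted p = 0.00989).

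Klb moved opposite to the receptor genes that rose. It had 20.3, 18.3 and 44.5 normalized counts in CflarLKO livers, against 88.8, 47.2 and 71.4 in CflarFF livers. The groups were separated by a small gap, since CflarLKO replicate 3 came close to CflarFF replicate 2. The log2 fold change was -1.37 (standard error 0.36, edgeR adjusted p = 0.0170). The call was lost without CflarLKO replicate 1 (-1.18) or 2 (-1.15), without CflarFF replicate 1 (-1.15) and under scaling by library size only (-0.90), and without CflarFF replicate 2 it was -1.59.

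**Figure D1:**
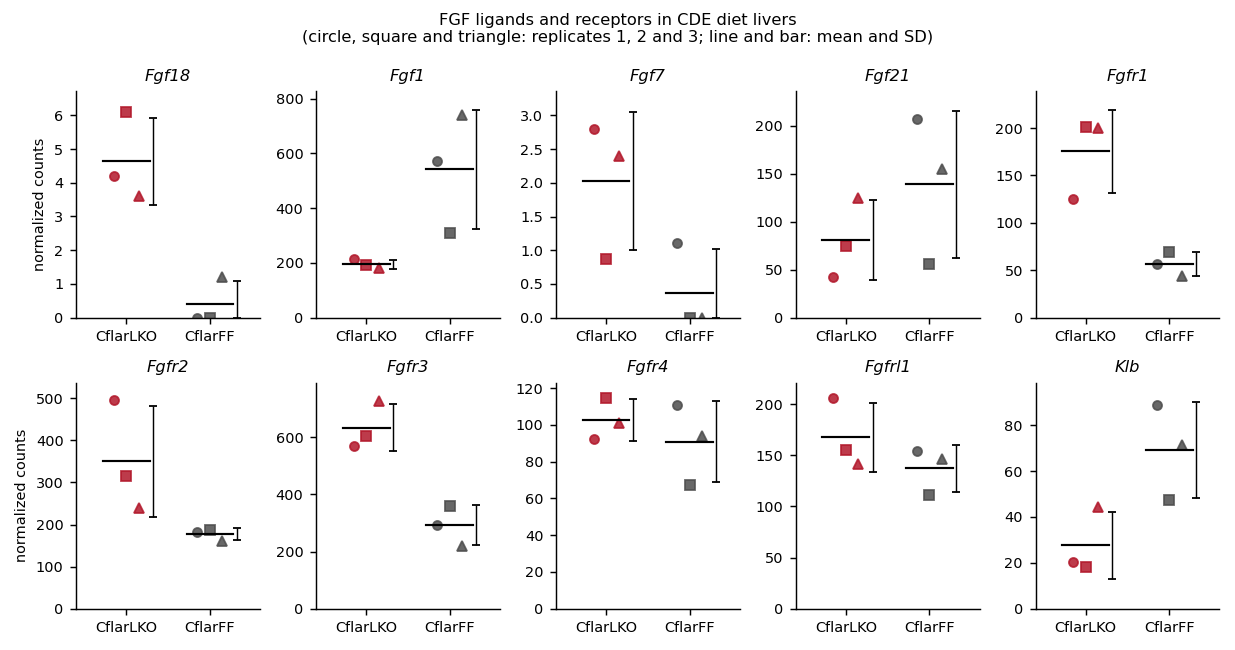
Normalized counts (vertical axes, linear, starting at 0) of the 10 FGF genes in the 3 CflarLKO and 3 CflarFF livers on the CDE diet, 1 point per mouse, with the mean as a line and the SD as a bar. Fgf18, Fgfr1, Fgfr2 and Fgfr3 lie higher in every CflarLKO library than in any CflarFF library, and Fgf1 and Klb lie lower.

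Marker genes of several cell types moved in the same livers. Of the hepatocyte markers, 12 of 20 fell and 0 rose, with summed levels of 411723 to 527728 normalized counts in CflarLKO livers against 709736 to 1499620 in CflarFF livers. Of the cholangiocyte markers, 11 of 14 tested rose (summed 10036 to 13868 against 1955 to 5356), and of the portal fibroblast and mesothelial markers 9 of 11 rose (summed 1319 to 1430 against 284 to 393). Among 15 hepatic stellate cell markers 7 rose and 3 fell (summed 6433 to 9282 against 3530 to 5195), among 15 macrophage markers 10 rose (summed 10277 to 12402 against 4984 to 7206), and among 6 neutrophil markers tested 3 rose (summed 2846 to 5143 against 415 to 874). Most of the neutrophil sum came from Lcn2 alone, at 3509 ± 1241 normalized counts in CflarLKO livers and 440 ± 240 in CflarFF livers. S100a8 had 25.1 ± 4.94 and 4.24 ± 0.601. The sum therefore describes mainly Lcn2. Of the neutrophil markers, Mmp8, Camp and Ltf were at 0 in all 3 CflarFF libraries. Genes at 0 there could pass the filter on low counts only through the CflarLKO libraries, where they could only be higher. Markers with few counts in CflarFF livers also passed only through the CflarLKO libraries, such as Wt1 (mean 1.18 normalized counts in CflarFF livers), Cldn4 (1.92) and Cftr (2.74). The numbers of risen markers are thus partly set by the filter. Over all genes tested, 15.6% were higher and 13.1% lower. Of 15 sinusoidal endothelial markers 2 rose and 0 fell (summed 2355 to 3258 against 2136 to 2902). The share of these changes in the values of the FGF genes was not tested, and in whole liver a change in the number of cells of a type and a change in RNA per cell cannot be told apart.

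In the normal diet livers Fgf18 dominated the set, and Fgfr2 rose while Fgf1 fell. Of the 9 members tested, 2 were higher in Fgf18Tg livers (10.7% of all 10909 genes tested were) and 1 was lower (11.7% of all genes were), which makes 3 in either direction, as for 22.4% of all genes. Fgf18, Fgfr1 and Fgfr2 lay entirely higher, as 19.4% of all genes did, and Fgf1 entirely lower, as 19.3% did. Fgf7 was not tested, with 1, 0 and 1 raw counts in Fgf18Tg livers and 0, 0 and 1 in NonTg livers (ratio 1.50, exact 95% interval 0.0781 to 88.5, exact permutation p = 0.7).

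Fgf18 had 9564, 5725 and 2803 raw counts in Fgf18Tg livers, against 191, 63 and 90 in NonTg livers. These are 3095, 2889 and 2466 CPM in Fgf18Tg livers, where Fgf18 ranked between 37 and 46 among all genes, and 86.2, 36.5 and 42.5 in NonTg livers, where it ranked between 1231 and 2873. The groups lay far apart, NonTg replicate 1 was the highest of its group, and all NonTg libraries were above the 1.35 to 1.74 CPM that 3 counts make. The log2 fold change was 5.27 (standard error 0.38, edgeR adjusted p = 2.44e-04). Reads of the transgene and of the native gene were not separated, since both carry the Fgf18 coding sequence. On this scale the NonTg livers thus held more Fgf18 reads than the CflarLKO livers on the CDE diet, but the tables were processed separately and sex, diet and age differ, so the reason cannot be told apart. The alleles of the NonTg mice are not given, and the paper reports read-through Fgf18 transcripts in various tissues of Fgf18Tg mice. The reads in NonTg livers are therefore not shown to come from the native gene.

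Fgf1 fell in the normal diet model as well. It had 75.1, 75.6 and 87.2 normalized counts in Fgf18Tg livers, against 107, 112 and 161 in NonTg livers. All Fgf18Tg libraries were below all NonTg libraries. The log2 fold change was -0.69 (standard error 0.17, edgeR adjusted p = 0.00809). The call was lost under scaling by library size only (-0.29, adjusted p = 0.201) and with all 12 libraries in 1 fit (-0.75, adjusted p = 0.0816).

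Fgf21 had 44, 17 and 5 raw counts in Fgf18Tg livers, against 0, 15 and 1 in NonTg livers. NonTg replicate 2 lay within the range of the Fgf18Tg libraries, and the log2 fold change of 1.54 had a 95% interval of -0.96 to 4.04 (edgeR adjusted p = 0.352). Without NonTg replicate 2 it was 4.77 (adjusted p = 0.00164), so that 1 library decided the outcome.

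Fgfr2 rose in Fgf18Tg livers by about as much as it did in CflarLKO livers, and with less scatter. It had 76.3, 88.2 and 93.3 normalized counts in Fgf18Tg livers, against 46.3, 41.0 and 42.9 in NonTg livers. The groups were well separated, with a log2 fold change of 0.96 (standard error 0.17, edgeR adjusted p = 6.76e-04) that ran from 0.90 to 1.36 over the alternatives tried.

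Fgfr1 had 19, 18 and 16 raw counts in Fgf18Tg livers, against 6, 6 and 10 in NonTg livers, or 11.4, 16.2 and 24.5 against 6.46, 7.93 and 11.3 normalized counts. The groups did not overlap (19.4% of all genes tested lay entirely higher), but by a narrow gap, and the change of 0.88 (95% interval 0.06 to 1.71) did not pass the threshold (edgeR adjusted p = 0.120). Fgfr1 passed the filter on low counts through the Fgf18Tg libraries. It passed when libraries were scaled by size only (1.28, adjusted p = 0.0184), which moved the median of all genes to 0.42.

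Fgfr3 did not show the rise seen on the CDE diet. It had 39.7, 36.9 and 36.7 normalized counts in Fgf18Tg livers, against 30.1, 64.8 and 32.8 in NonTg livers. NonTg replicate 2 was the highest of the 6, and the log2 fold change of -0.13 (95% interval -0.69 to 0.42, edgeR adjusted p = 0.762) turned to 0.25 without it and to 0.26 under scaling by library size only.

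Klb, Fgfr4 and Fgfrl1 did not pass the test on the normal diet. Klb averaged 47.3 ± 6.95 normalized counts in Fgf18Tg livers and 43.8 ± 12.8 in NonTg livers (SD, n = 3 each; log2 fold change 0.14, 95% interval -0.33 to 0.62). Fgfr4 averaged 30.3 ± 1.95 in Fgf18Tg livers and 25.7 ± 5.09 in NonTg livers (0.20, 95% interval -0.30 to 0.70). Fgfrl1 averaged 27.0 ± 1.79 in Fgf18Tg livers and 25.5 ± 3.81 in NonTg livers (0.07, 95% interval -0.43 to 0.58). These intervals leave room for a change of up to about 0.70 on the log2 scale in Fgfr4, so that stability of these genes was not shown.

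**Figure D2:**
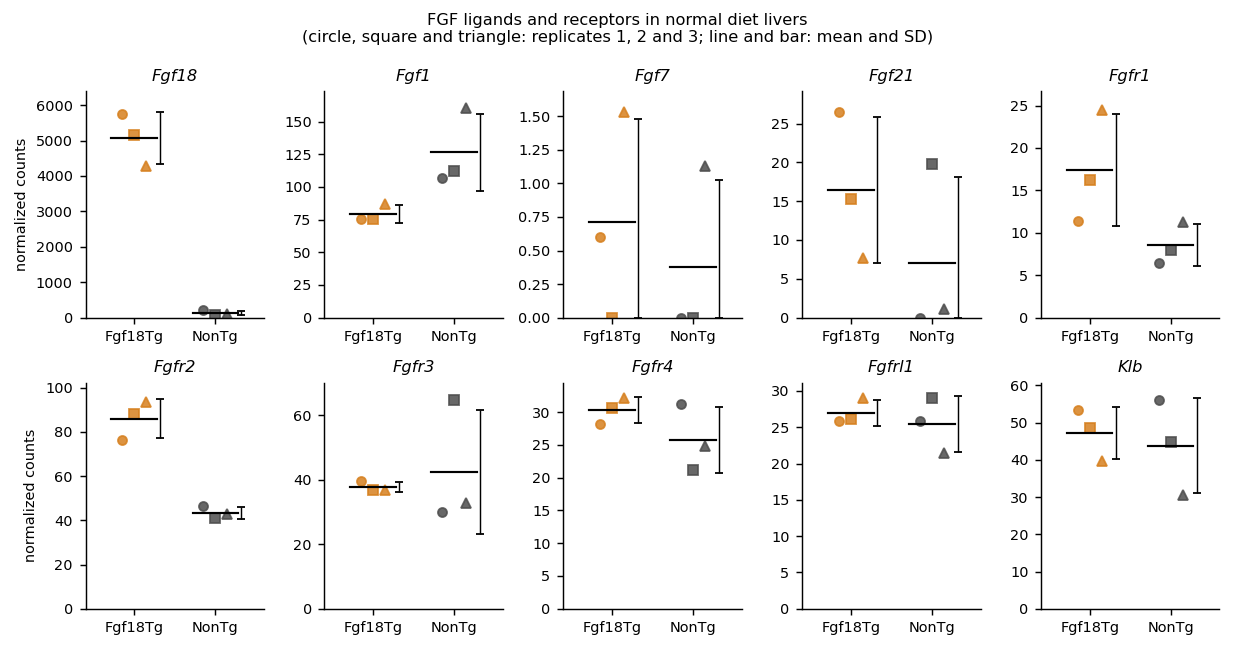
Normalized counts (vertical axes, linear, starting at 0) of the 10 FGF genes in the 3 Fgf18Tg and 3 NonTg livers on the normal diet, 1 point per mouse, with the mean as a line and the SD as a bar. Fgf18, Fgfr1 and Fgfr2 lie higher in every Fgf18Tg library than in any NonTg library, and Fgf1 lies lower.

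The cell type markers moved in these livers too. Of 20 hepatocyte markers 11 fell and 1 rose, with summed levels of 243955 to 281622 normalized counts in Fgf18Tg livers against 310508 to 349357 in NonTg livers. Of 13 hepatic stellate cell markers tested 8 rose (summed 1302 to 1692 against 426 to 589), of 4 portal fibroblast and mesothelial markers 2 rose (summed 96.2 to 158 against 37.3 to 51.5), of 4 cholangiocyte markers 3 rose (summed 580 to 785 against 185 to 217) and of 12 macrophage markers 5 rose (summed 730 to 870 against 412 to 636). Only 4 of the 15 cholangiocyte markers could be tested. Most of their sum came from Spp1 (545 ± 122 against 105 ± 27.2) and Cdh1 (108 ± 14.2 against 56.9 ± 9.23). Of 11 neutrophil markers 10 rose (summed 539 to 898 against 40.9 to 44.9), and Retnlg, Mmp8, Ngp, Camp, Ltf, Elane and Mpo were at 0 in all 3 NonTg libraries, as were the mesothelial and fibroblast markers Wt1 and Pi16. Genes at 0 there could pass the filter on low counts only through the Fgf18Tg libraries, so a rise was their only possible outcome. Markers with few counts in NonTg livers also passed only through the Fgf18Tg libraries, such as Adamtsl2 (mean 3.92 normalized counts in NonTg livers), Cd34 (1.57) and Ccr2 (3.36). The numbers of risen markers are thus partly set by the filter here too. Over all genes tested, 10.7% were higher and 11.7% lower. Of 12 sinusoidal endothelial markers 1 rose and 3 fell (summed 296 to 451 against 328 to 463). Their part in the rise of Fgfr2 was not tested.

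**Figure D3:**
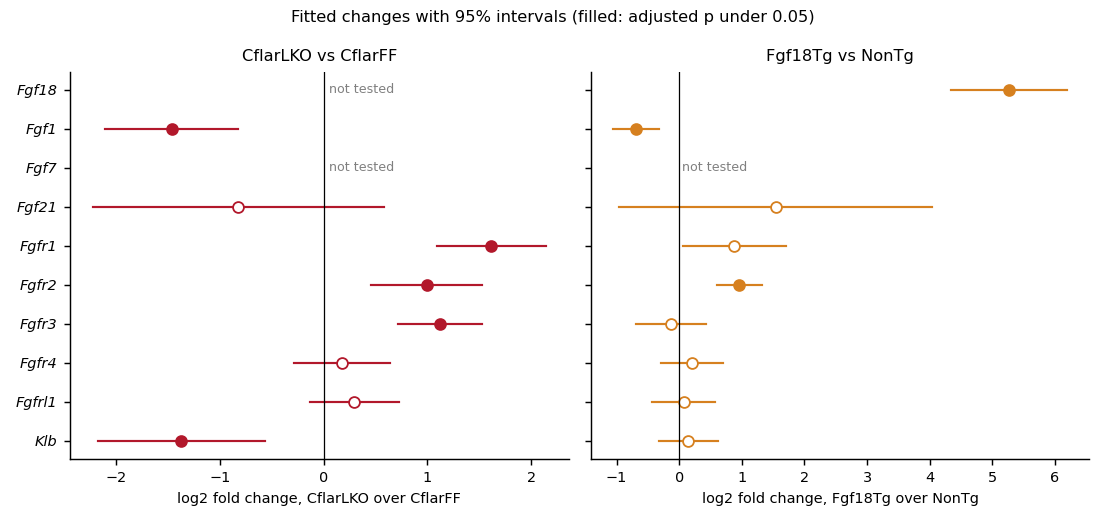
Log2 fold change (horizontal axis) of each FGF gene with its 95% interval, for CflarLKO over CflarFF on the left and Fgf18Tg over NonTg on the right. Filled points passed an adjusted p under 0.05, and Fgf1 (-1.47 and -0.69) and Fgfr2 (0.99 and 0.96) are filled on both sides.

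Whether the models differed in their effects was tested in 1 fit of all 12 libraries, where diet, age, sex by counts and control mice differ along with the genotype and cannot be told apart from it. Of the 9 members tested 1 passed, and 3.10% of all 13956 genes tested did. It was Fgfr3, whose effect was 1.34 greater on the log2 scale in CflarLKO than in Fgf18Tg livers (standard error 0.34, edgeR adjusted p = 0.0388). This call was lost in 11 of 16 alternatives, with the smallest value, 0.92, without NonTg replicate 2. Klb differed by -1.44 (adjusted p = 0.0879) and Fgf1 by -0.69 (adjusted p = 0.375), and both passed without CflarFF replicate 2, at -1.65 (adjusted p = 0.0136) and -0.96 (adjusted p = 0.0121). The effects on Fgfr2 differed by 0.11 (standard error 0.31, adjusted p = 0.908).

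A ratio of counts of genes within a library does not depend on how the library is scaled. Relative to Fgfr4, Fgfr1 counts were 1.35, 1.75 and 1.97 in CflarLKO livers, against 0.512, 1.03 and 0.472 in CflarFF livers, so that all CflarLKO ratios were higher (2.65-fold, exact permutation p = 0.1, the smallest possible). As a share of the counts of Fgfr1 to Fgfr4 the groups overlapped, since Fgfr1 took 9.77% in CflarLKO replicate 1 and 10.2% in CflarFF replicate 2, and the change was 0.56 on the log2 scale, against 1.41 over Fgfr4 alone. The ratio of Klb to Fgfr4 was 0.223, 0.162 and 0.444 in CflarLKO livers, against 0.801, 0.704 and 0.761 in CflarFF livers. Every CflarLKO ratio was below every CflarFF ratio, and the CflarFF ratios were close together (0.334-fold, exact permutation p = 0.1). FGFR4 and beta-Klotho act together in the response to FGF15.

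The other ratios separated the groups less on the CDE diet. Fgfr3 over Fgfr4 was 6.15, 5.24 and 7.17 in CflarLKO livers, against 2.64, 5.31 and 2.33 in CflarFF livers, where replicate 2 overlapped (exact permutation p = 0.2). Fgfr2 over Fgfr4 ran from 2.35 to 5.34 in CflarLKO livers and from 1.65 to 2.76 in CflarFF livers (exact permutation p = 0.3). On the normal diet the ratio of Fgfr2 to Fgfr4 was 2.68, 2.86 and 2.86 in Fgf18Tg livers, against 1.47, 1.91 and 1.71 in NonTg livers, with no overlap (1.66-fold, exact permutation p = 0.1). Klb over Fgfr4 on the normal diet overlapped, from 1.23 to 1.88 in Fgf18Tg livers and from 1.22 to 2.09 in NonTg livers (exact permutation p = 0.8). In all, 10 ratios were compared, and none could reach an adjusted p under 0.05 in this design.

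**Figure D4:**
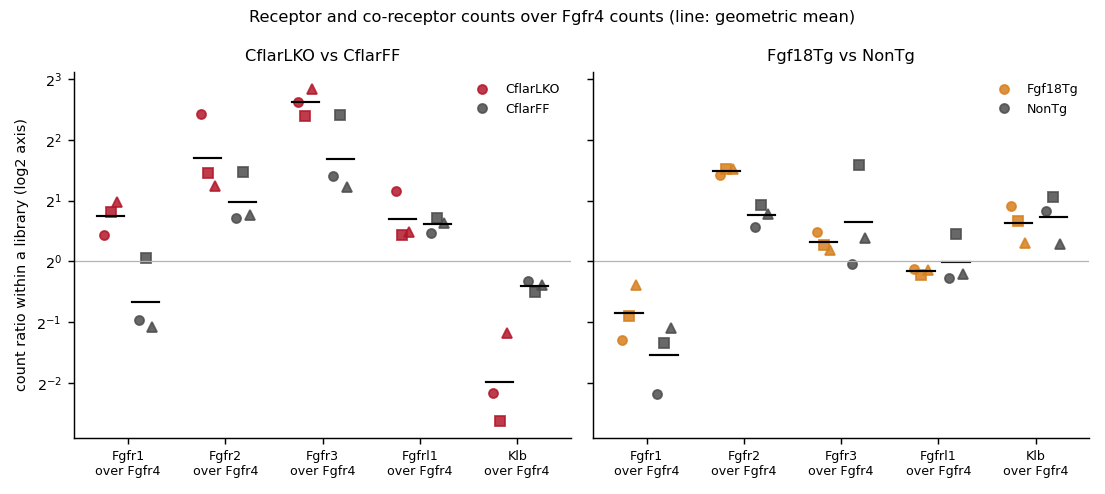
Ratio of the counts of Fgfr1, Fgfr2, Fgfr3, Fgfrl1 and Klb to those of Fgfr4 in each library (vertical axis, log2 scale), CflarLKO and CflarFF on the left and Fgf18Tg and NonTg on the right, with the geometric mean of each group as a line. Klb over Fgfr4 is lower in every CflarLKO library (0.162 to 0.444) than in any CflarFF library (0.704 to 0.801).

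Levels of different members were compared only per kilobase of annotated exon (GENCODE M21), which is not the authors' annotation, and whether reads cover transcripts evenly was not tested. On this scale Fgfr3 led in CflarLKO livers with 88.5 ± 11.6 normalized counts per kilobase (SD, n = 3), followed by Fgf21 (84.8 ± 44.0) and Fgfrl1 (60.3 ± 12.1), neighbours whose ranges overlapped. Fgf1 (35.8 ± 2.99), Fgfr2 (33.9 ± 12.7) and Fgfr4 (29.0 ± 3.18) came next, where Fgfr2 overlapped both of its neighbours but Fgf1 lay above Fgfr4 in every library, and Fgfr1 (17.8 ± 4.38) stood apart from both neighbours. Klb (6.09 ± 3.21) overlapped Fgf18 (3.90 ± 1.09). In CflarFF livers Fgf21 (146 ± 80.7) and Fgf1 (99.1 ± 39.7) led and overlapped, Fgfr3 was at 40.7 ± 9.78 and Fgfr1 at 5.75 ± 1.30. So Fgfr3 ranked 1 of 10 in CflarLKO livers and 4 of 10 in CflarFF livers, and Fgf18 ranked 9 in both.

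On the normal diet Fgf18 ranked 1 in both groups, with 4265 ± 619 normalized counts per kilobase in Fgf18Tg livers and 110 ± 55.6 in NonTg livers (SD, n = 3 each). Reads of the transgene and of the native gene were not separated, and the alleles of the NonTg mice are not given. The rank in NonTg livers is therefore not shown to be that of the native gene. In Fgf18Tg livers Fgf21 (17.3 ± 9.94) overlapped Fgf1 (14.5 ± 1.25), Klb (10.4 ± 1.53) overlapped Fgfrl1 (9.71 ± 0.646) and Fgfr4 (8.56 ± 0.551) overlapped Fgfr2 (8.32 ± 0.843), whereas Fgf1 lay apart from Klb and Fgfrl1 from Fgfr4. The wide range of Fgf21 also took in Klb, Fgfrl1, Fgfr4 and Fgfr2, and Fgfr3 (5.27 ± 0.231) lay below them all. In NonTg livers Fgf1 (23.1 ± 5.42) ranked 2 and lay apart from Klb, and the neighbours from Klb (9.63 ± 2.80) to Fgfr2 (4.20 ± 0.260) overlapped. Fgfr1 was the lowest of the receptors in every group, at 1.76 ± 0.669 in Fgf18Tg livers and 0.867 ± 0.251 in NonTg livers.

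Other genes of the pathway are given from lists of fixed membership, by counts and medians that stand beside a median over all genes tested of -0.0016 on the CDE diet and 0.019 on the normal diet. The share of all genes tested that passed in either direction was 28.7% on the CDE diet (15.6% higher, 13.1% lower). It was 22.4% on the normal diet (10.7% higher, 11.7% lower). Of 18 other FGF ligand genes, 4 could be tested on the CDE diet, and 3 of them rose. Fgf2, a heparin-binding ligand of mesenchymal cells, had 31, 36 and 17 raw counts in CflarLKO livers, against 6, 4 and 6 in CflarFF livers (log2 fold change 1.97, standard error 0.37, edgeR adjusted p = 0.00302). Fgf11 and Fgf12, members of the intracellular FGF group, rose too (1.23 and 1.86), both at low counts, and are named after their values were seen. All 3 genes passed the filter on low counts through the CflarLKO libraries, where they are high. On the normal diet 2 could be tested and neither passed, and Fgf2 had 13, 8 and 4 raw counts in Fgf18Tg livers, against 3, 1 and 1 in NonTg livers.

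Among FGF co-receptors and heparan sulfate carriers, 5 of the 14 tested rose and 3 fell in CflarLKO livers (median 0.19). The summed level of the list was lower, at 11584 to 11973 normalized counts in CflarLKO livers against 13011 to 14741 in CflarFF livers. Ncam1, an adhesion molecule that can bind FGF receptors, rose by 2.47 on the log2 scale, Cd44, whose variant forms carry heparan sulfate, by 2.02, Hspg2, which encodes the basement membrane proteoglycan perlecan, by 1.49 and Gpc1, a glypican, by 1.33. The syndecan Sdc1, the most abundant of the list, did not pass (0.15, edgeR adjusted p = 0.590). In Fgf18Tg livers 3 of 10 rose and 0 fell (median 0.13), or 30% against 22.4% of all genes in either direction. The 3 were Cd44 (1.52), Hspg2 (1.27) and the syndecan Sdc3 (0.64, a call lost in 8 alternatives). Sdc4, the most abundant, did not pass (0.12, edgeR adjusted p = 0.533).

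The adaptors and the RAS to ERK core moved in both directions on the CDE diet. In CflarLKO livers 3 of 21 rose and 6 fell (median -0.14), together 42.9% of the list against 28.7% of all genes. Mapk3, which encodes ERK1, rose by 0.81, the ubiquitin ligase gene Cbl by 0.88 and Nras by 0.58, while Sos1, the RAS exchange factor gene, fell by 0.93 and Map2k2, a MEK gene and the most abundant of the list, fell by 0.43, a value that turned to 0.025 under scaling by library size only. Of these calls, that of Nras was lost in 8 of 14 alternatives. That of Map2k2 was lost in 7 with its sign kept and also in the 1 where its sign turned. In Fgf18Tg livers 1 of 20 rose and 1 fell (median -0.049), together 10% of the list, which was below the 22.4% of all genes. These were again Mapk3 (0.66) and Sos1 (-0.43, a call lost in 9 alternatives). Pik3r1, the most abundant there, did not pass (-0.26, edgeR adjusted p = 0.338).

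Feedback inhibitors and targets of FGF and ERK signalling rose in part in both models. In CflarLKO livers 8 of 18 rose and 0 fell (median 0.69), among them Ier3 (2.82), Fos (2.13), Il17rd, an inhibitor of FGF signalling also called Sef (1.80), Spry1, a Sprouty gene (1.66), and the cyclin gene Ccnd1 (0.96), which was the most abundant. In Fgf18Tg livers 5 of 10 tested rose and 0 fell (median 0.94), among them Egr1 (1.66), Spred1 (1.26), Dusp6, which encodes an ERK phosphatase (1.25), and Spry2 (0.99), whereas Ccnd1 did not pass (0.52, edgeR adjusted p = 0.0946). Dusp6 had 70.9 ± 6.20 normalized counts in Fgf18Tg livers and 30.4 ± 15.9 in NonTg livers (SD, n = 3 each). In CflarLKO livers Dusp6, with a log2 fold change of -0.63, and Spred1, with -0.07, were not past the threshold (edgeR adjusted p = 0.0746 and 0.753). Dusp6 in CflarLKO livers was singled out after its values were seen.

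The genes of a bile acid list were mostly lower. The list mixes genes of synthesis, which FGFR4 and beta-Klotho are known to restrain, with genes of transport, conjugation and regulation. In CflarLKO livers 7 of 11 fell and 1 rose (median -0.89). Cyp8b1, the sterol 12-alpha-hydroxylase gene, fell (log2 fold change -2.43), as did the bile acid uptake transporter gene Slc10a1 (-2.15) and the conjugating enzyme gene Baat (-1.31), and the exporter subunit gene Slc51b rose by 1.28. In Fgf18Tg livers 8 of 10 fell and 0 rose (median -0.74). Cyp8b1 averaged 51.7 ± 11.7 normalized counts in Fgf18Tg livers and 448 ± 110 in NonTg livers (SD, n = 3 each; log2 fold change -3.06, edgeR adjusted p = 8.54e-07), Cyp7b1, which encodes an oxysterol hydroxylase, fell as well (-2.37), and so did Slc27a5 (-0.97), Baat (-0.93) and Slc10a1 (-0.81). Cyp7a1, which encodes the rate-limiting enzyme of the classic route and was singled out as the best known target of FGF15, had a log2 fold change of -0.61 in CflarLKO livers (edgeR adjusted p = 0.538) and -0.21 in Fgf18Tg livers (adjusted p = 0.650).

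Targets of PPARA and of ATF4, the factors known to induce Fgf21 in liver, were listed as well. Of 15 PPARA targets 12 fell and 0 rose in CflarLKO livers (median -0.94), with Fabp1 at -1.57, Ppara itself at -1.35 and Cyp4a14 at -1.15. In Fgf18Tg livers 8 of 13 fell and 1 rose (median -0.60), with Acot1 at -1.86, Ehhadh at -1.05, Fabp1, the most abundant, at -0.51 and Vnn1 at 0.83, the last named pair being calls that 7 and 6 alternatives removed. Of the ATF4 targets, 3 of 14 rose and 2 fell in CflarLKO livers (median -0.23), with the serine synthesis gene Psat1 at 2.19, Mthfd2 at 1.36, Slc7a11 at 0.86 and Atf5, the most abundant, at -0.94. In Fgf18Tg livers 1 of 8 rose and 0 fell (median 0.37), or 12.5%, which was below the 22.4% of all genes. Atf5 did not pass there (0.35, edgeR adjusted p = 0.123). Fgf21 itself passed in neither model, and hepatocyte markers fell in both, as given above.

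**Figure D5:**
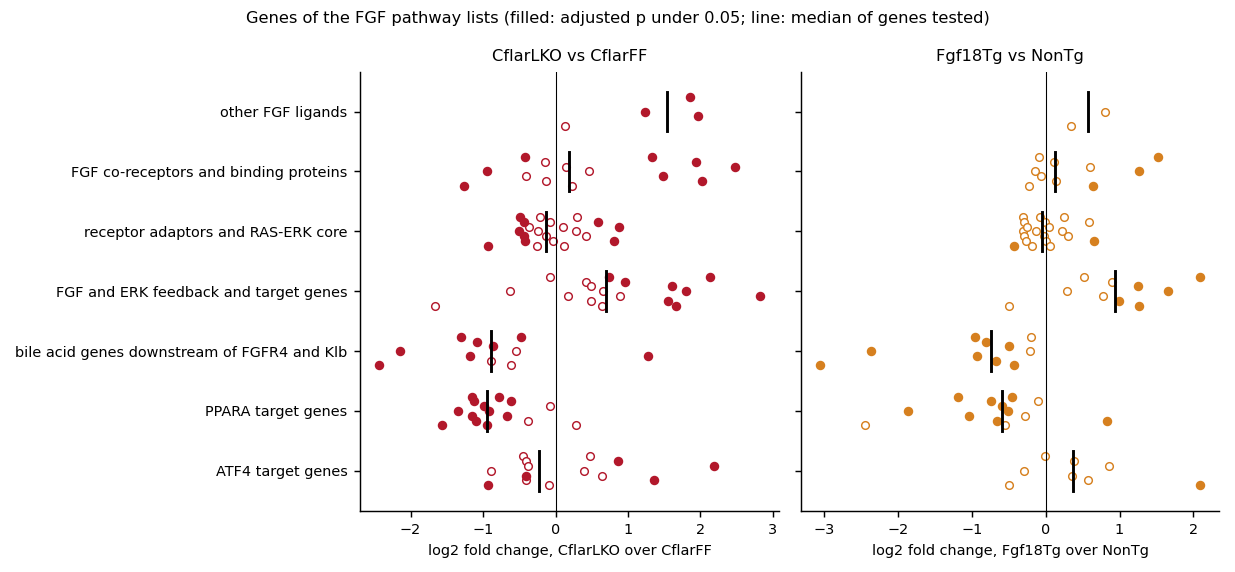
Log2 fold change (horizontal axis) of each tested gene in 7 lists of FGF-related genes, CflarLKO over CflarFF on the left and Fgf18Tg over NonTg on the right, with filled points past an adjusted p under 0.05 and the median of each list as a line. The medians of the bile acid list (-0.89 and -0.74) and the PPARA list (-0.94 and -0.60) lie below 0 and those of the feedback list (0.69 and 0.94) above it on both sides.

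The genes most like a member were those with the highest Pearson r of log2 normalized counts over the 12 libraries, each experiment centred on its own mean, among 7519 or 7520 genes. Fgfr1 was most like the collagen gene Col1a1 (r = 0.94), Fgfr2 most like Mapk3 (0.95) and Hspg2 (0.95), Klb most like Tymp (0.94) and Fgf1 most like C1rb (0.99), with Fgfr3 closest to Hdac3 (0.91). These are descriptions of libraries that share group, depth and scaling. Among the members themselves, Fgf1 ran against Fgfr1 (r = -0.80), Fgfr3 (-0.78) and Fgfr2 (-0.72), and Fgfr1 ran with Fgfr2 (0.72).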

How the data were processed

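Whole-liver RNA of 12 mice was sequenced after oligo(dT) priming and PCR amplification of cDNA. Per the labels and the study's methods the reads were mapped with Bowtie2 to GRCm39 (mm39), and the authors deposited raw read counts per gene, 1 table per experiment. The counter, its annotation and its treatment of strand are not given in the sources used here. The authors' normalized tables were not used, and 0 columns of the tables belonged to no sample. Fold changes were computed from the counts in edgeR 4.0.16 (R 4.3.3) with TMM scaling, filterByExpr (minimum count 10, minimum total 15), a robust quasi-likelihood fit per experiment and Benjamini-Hochberg adjustment over all genes tested, with a threshold of 0.05. The alternatives were DESeq2 1.42.0, library size or RLE scaling, other filters or no filter, a threshold of 0.01, all 12 libraries in 1 fit, a replicate block and each replicate left out in turn. The difference between the models was an interaction over genes in both tables (18924). Members too low to test were compared by summed counts with exact 95% intervals and by exact two-sided permutation tests, and count ratios used a pseudocount of 0.5. Intervals and the floor of 3 counts cover counting error only, since PCR reads carry no molecular identifiers here. Total counts were 1136680 to 10414883 per library. The labels name separate samples, and p-values measure the spread between them. Members and lists were chosen with earlier results of these data known. From each list the text names up to 4 genes with the largest change among those called, provided that the group with more of it averaged 20 normalized counts or above, and the most abundant gene. Some genes that this rule selects are not reported here. Scripts were tested on simulated data.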

Additional observations from a re-analysis of the deposited data

Results flagged for a closer look

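The effect on Fgfr3 differed between the models in a test of the difference itself. Its log2 fold change was 1.14 for CflarLKO over CflarFF and -0.20 for Fgf18Tg over NonTg in the fit of all 12 libraries, a difference of 1.34 (standard error 0.34, edgeR adjusted p = 0.0388). All 3 CflarLKO libraries were above all 3 CflarFF libraries, and the Fgf18Tg and NonTg libraries overlapped. Over the alternatives the difference ran from 0.92 to 1.54 with adjusted p from 0.00406 to 0.147. Diet, age and sex by counts differed between the models and cannot be told apart from the genotype.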

How the results depend on the processing

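Among the alternatives for single genes and differences, 91 lost a call and 16 gained a call with the sign kept, and 13 values of tested genes changed sign. Of the values with no test, with replicates left out, that of Fgf7 in Fgf18Tg livers ran from -0.11 to 1.14, and the log2 ratios over Fgfr4 ran through 0 for Fgfrl1 in CflarLKO livers (-0.15 to 0.21) and, in Fgf18Tg livers, for Fgfr3, Fgfrl1 and Klb (highest 0.14, 0.073 and 0.065). Under scaling by library size only, 6649 genes were higher and 647 lower in CflarLKO livers, with 5 members higher and 1 lower, and 3632 genes were higher and 344 lower in Fgf18Tg livers, with 0 members lower and 0 members different between the models. At a threshold of 0.01 the genes were 1553 higher and 1010 lower in CflarLKO livers, with 1 member lower, and 646 higher and 732 lower in Fgf18Tg livers. DESeq2 called 726 genes higher and 796 lower in Fgf18Tg livers, and with all 12 libraries in 1 fit 0 members were lower there. With no filter, 2 members differed between the models. With each replicate left out in turn, the genes lower in CflarLKO livers were 1235 to 2616, the members lower 1 to 2 and higher 2 to 3, and the members that differed between the models 0 to 3. Over Fgfr1 to Fgfr4 summed in place of Fgfr4 alone, the log2 ratio changed in CflarLKO livers by 0.56 for Fgfr1, -0.12 for Fgfr2, 0.096 for Fgfr3, -0.76 for Fgfrl1 and -2.43 for Klb, and in Fgf18Tg livers by 0.46 for Fgfr2, where the summed denominator holds the numerator of the first 3. By library size only, Map2k2 in CflarLKO livers was at 0.025, and in Fgf18Tg livers Fgfr3 was at 0.26 and Pik3r1 at 0.14. With replicates left out, values in Fgf18Tg livers ran from -0.36 to 0.25 for Fgfr3, -0.058 to 0.15 for Fgfrl1, -0.089 to 0.36 for Klb and -0.0090 to 0.16 for Sdc4, and the difference between the models ran from -0.30 to 0.25 for Fgfr2 and -0.13 to 0.24 for Fgfr4, which was at -0.046 with no filter. The causes were not tested beyond what each alternative's construction shows. Same-numbered libraries did not deviate together (correlations from -0.110 to 0.0843, against -0.102 to 0.122 for libraries of different numbers). With 3 libraries per group, each group centred on its own mean, this cannot exclude that the mice were paired. With a replicate block, 2408 genes were higher and 1862 lower in CflarLKO livers, with 3 members higher and 2 lower, and 1260 were higher and 1290 lower in Fgf18Tg livers, with 2 members higher and 1 lower. Under this block 0 members differed between the models, Fgfr3 being at 1.33 (edgeR adjusted p = 0.0647). Depth limits Fgf18 and Fgf7 on the CDE diet and Fgf7, Fgf21 and Fgfr1 on the normal diet most.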

Other observations

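Among the FGF ligand genes outside the set, Fgf14 had 139, 115 and 77 raw counts in Fgf18Tg livers and 74, 61 and 66 in NonTg livers, while on the CDE diet, with deeper libraries, it had 1, 1 and 1 in CflarLKO livers and 2, 0 and 0 in CflarFF livers. The test of Fgf14 in Fgf18Tg livers did not pass (log2 fold change 0.35, edgeR adjusted p = 0.143). The experiments were processed separately and diet, age and sex by counts differ, so the reason for the gap between them cannot be told apart. Fgf14 was singled out after its values were seen. Fgf15, the ileal hormone, had 1, 7 and 4 raw counts in CflarLKO livers and 2, 0 and 3 in CflarFF livers.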
